A study of Mus musculus with 20 samples.

Results

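Receptors for adenosine, nucleotides, lysophospholipids, fatty acids and related metabolites were followed in mouse macrophages exposed to LPS, the lipopolysaccharide of bacterial cell walls. The genes were chosen by name: every non-control probe whose gene name began with Gpr, P2ry, Adora, S1pr or Lpar followed by its number entered, which gave 119 genes (145 probes) of 30117 gene names on the array. They comprised 96 Gpr, 8 P2ry, 6 Lpar, 5 S1pr and 4 Adora genes. Of these, 83 were well above background in a channel on at least 3 arrays and were tested, out of 21961 tested genes in all, and 51 were above background on all 20 arrays. The other 36 were not tested, 24 of them being above background on no array. These 36 comprised Adora1, P2ry4, S1pr5, Lpar3 and 32 Gpr genes.

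The names bring together receptors of different kinds. Alongside the lipid, metabolite and purine receptors stand orphans and adhesion receptors that now carry Adgr names, such as Gpr56 (Adgrg1) and Gpr126 (Adgrg6). Gpr77 is the C5a receptor C5ar2, and the Gpr172b probe matches Slc52a2, a riboflavin transporter and no receptor of this class. The label of metabolite, lipid and purinergic receptors therefore describes only some of the genes, and 14 of 25 Gpr genes listed with a reported lipid, metabolite or proton ligand were tested.

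G-protein-coupled receptors sit in the plasma membrane and pass a signal to Gs, Gi, Gq or G12/13 proteins. Gs raises cyclic AMP, Gi lowers it, and Gq releases calcium. ATP leaking from stressed cells acts on P2Y receptors and is broken down to adenosine, which acts on adenosine receptors and restrains macrophage activation through Gs. Sphingosine 1-phosphate and lysophosphatidate guide the migration of leukocytes.

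The macrophages were grown from bone marrow of C57BL/6 mice in M-CSF-conditioned medium for 6 days, and each of 20 arrays of 2 colours paired RNA of cells given 200 ng/mL Salmonella LPS with RNA of untreated cells, both of 1 genotype and time. The genotypes are labelled wild-type, TRIF-KO (Trif -/-), MyD88-KO (MyD88 -/-) or double-KO (MyD88/Trif -/-), with 1 array each at 1, 2, 4, 8 and 16 h. The LPS receptor Tlr4 signals through 2 adapters, MyD88 and TRIF (the product of Ticam1), and the genotypes ask which adapter a response needs. Nothing in the labels tells whether arrays came from separate animals or cultures, so p-values measure the spread between these samples. Apart from the slopes, the fits took time as a block, so that spread leaves out variation between times shared by the genotypes. It keeps the differences between their time courses.

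The Ticam1 transcript was low in only 1 of the genotypes labelled as lacking TRIF. Its untreated log2 level was 7.28 ± 0.04 in double-KO cells (SD, n = 5) and 10.8 ± 0.28 in the cells labelled TRIF-KO (n = 5), against 10.6 ± 0.19 in wild-type cells (n = 5), so these cells are called TRIF-KO-labelled here. A transcript level does not show whether working protein was made, so the Ticam1 probe does not settle the TRIF-KO label. The Myd88 probe was bright in every genotype and does not check the MyD88 labels. The Y-linked Eif2s3y averaged 14.2 both in double-KO and in TRIF-KO-labelled cells, whereas it averaged 6.57 in MyD88-KO cells and 6.5 in wild-type cells, and Xist ran the opposite way, although gender matching is stated in the labels. Macrophage markers were above background on every array, 8 of 8, at summed log2 levels of 19.5 to 20.1. Neutrophil and precursor markers summed to between 16.7 and 17.0 in untreated MyD88-KO cells and to between 15.2 and 15.7 in wild-type cells. Their part in the results was not tested. Between 56 and 77 of the receptor genes were above background per array. The dye of LPS-treated RNA was Cy5, except on the 2 h array of MyD88-KO cells, where it was Cy3, so a gene-specific dye effect cannot be told apart from a mean response. The arrays lay on 5 slides scanned on 2 days, and no slide held 2 genotypes at the same time.

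The following promoter windows, each spanning the start of transcription (RefSeq, GRCm38.p6, minus strand, printed 5′ to 3′), belong to genes on which the results turn. Gpr84 (chr15:103310389-103310688) had the largest response, Gpr132 (chr12:112860867-112861166) and Gpr18 (chr14:121915839-121916138) also rose, and P2ry12 (chr3:59262936-59263235) and P2ry13 (chr3:59210833-59211132) are neighbours with different time courses. Capitals mark a match to the kappa B consensus in Gpr132 (from base 163) and P2ry12 (from base 200), or to an interferon response type element in Gpr18 (from base 210).
Gpr84: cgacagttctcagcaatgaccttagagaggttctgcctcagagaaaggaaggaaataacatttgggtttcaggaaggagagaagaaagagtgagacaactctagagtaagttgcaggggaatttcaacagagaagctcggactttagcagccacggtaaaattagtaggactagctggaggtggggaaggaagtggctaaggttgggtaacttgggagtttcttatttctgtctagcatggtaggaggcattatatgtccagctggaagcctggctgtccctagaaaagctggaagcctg
Gpr132: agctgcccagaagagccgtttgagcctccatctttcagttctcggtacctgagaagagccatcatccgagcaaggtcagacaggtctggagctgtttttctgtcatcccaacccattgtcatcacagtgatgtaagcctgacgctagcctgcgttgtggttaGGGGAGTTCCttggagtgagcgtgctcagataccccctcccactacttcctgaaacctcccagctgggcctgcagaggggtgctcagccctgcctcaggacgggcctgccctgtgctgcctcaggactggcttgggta
Gpr18: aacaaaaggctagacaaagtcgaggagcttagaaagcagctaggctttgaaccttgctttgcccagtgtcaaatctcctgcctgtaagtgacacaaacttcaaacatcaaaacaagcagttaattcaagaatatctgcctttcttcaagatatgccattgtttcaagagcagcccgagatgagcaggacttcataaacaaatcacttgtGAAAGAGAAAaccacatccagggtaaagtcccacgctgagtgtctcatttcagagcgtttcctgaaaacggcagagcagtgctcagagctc
P2ry12: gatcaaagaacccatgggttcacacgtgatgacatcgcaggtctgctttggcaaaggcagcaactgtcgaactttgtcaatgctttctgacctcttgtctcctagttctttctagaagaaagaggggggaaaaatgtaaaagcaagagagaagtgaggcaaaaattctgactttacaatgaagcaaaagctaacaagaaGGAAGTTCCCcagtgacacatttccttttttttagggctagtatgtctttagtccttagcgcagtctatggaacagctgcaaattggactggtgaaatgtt
P2ry13: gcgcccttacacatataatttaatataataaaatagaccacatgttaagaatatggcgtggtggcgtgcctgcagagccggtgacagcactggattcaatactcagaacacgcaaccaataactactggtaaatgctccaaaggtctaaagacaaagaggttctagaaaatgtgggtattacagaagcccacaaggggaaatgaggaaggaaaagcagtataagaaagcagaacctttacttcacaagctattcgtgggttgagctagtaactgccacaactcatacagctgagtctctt
The Gpr84 and P2ry13 windows held none of the motifs searched. Both strands were searched, and 63 receptor genes had a window. The kappa B consensus was in windows of 4 of these 63 genes (6.35%) and in 8.46% of 32851 windows of all genes. The interferon response type element, GAAA repeated after any 2 bases, was in 3 genes (4.76%) and in 3.44% of all windows. TGACGTCA, the cyclic AMP response element, was in 2 genes (3.17%) and in 1.79% of all windows, and TGANTCA, the AP-1 site, in 11 genes (17.5%) and in 7.81% of all windows. Genes with several windows count once here while all windows count singly, so the shares are descriptions only.

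Responses are given as log2 ratios of LPS-treated over untreated cells. Averaged over the times by limma, 35 of the 83 receptor genes differed from 0 at an adjusted p under 0.05 in wild-type cells (17 higher, 18 lower), where 36.6% of all tested genes did (16.8% higher, 19.7% lower). In TRIF-KO-labelled cells 30 did (13 higher, 17 lower), against 28.8% of all genes (12.8% higher, 16% lower). In MyD88-KO cells 37 did (18 higher, 19 lower), against 35.4% of all genes (16.8% higher, 18.6% lower). In double-KO cells limma called 0, against 0.332% of all genes. At an unadjusted p under 0.05 there were 2, beside 1463 of the 21961 genes tested. The fit shared 1 spread per gene over all genotypes. The SD of log2 ratios was 0.131 to 0.198 on double-KO arrays and 0.218 to 0.947 on the others. Small double-KO responses could therefore be missed, and the 0 does not show that there were none. With slide as a fixed block the counts for the genotypes with an adapter were 0, 13 and 9, and with a dye term 8, 8 and 9. Shares over all genes were not computed for such changes of block or term, or with arrays left out. The changes in count, here and below, are therefore not read as particular to the receptors. The receptors' shares, 42.2% in wild-type, 36.1% in TRIF-KO-labelled and 44.6% in MyD88-KO cells, were somewhat above those of all genes, and nothing particular to the receptors is read from them. The median log2 response of the 83 genes was -0.06 in wild-type cells, beside -0.01 for all genes, and it was -0.04 in TRIF-KO-labelled cells, beside -0.02 for all genes. It was 0.02 in MyD88-KO cells and -0.01 in double-KO cells, beside 0.002 and 0.001 for all genes. At least 1 of these mean responses called 54 of the receptor genes, 65.1%, beside 56.6% of all genes. All 3 called 19, 22.9% beside 14.1% of all genes, of which 9 were higher in each (10.8% beside 5.68%) and 10 lower in each (12% beside 8.42%). Leaving out 1 array took the counts down to 22 in wild-type (without its 4 h array), 17 in TRIF-KO-labelled (without its 8 h array) and 22 in MyD88-KO cells (without its 8 h array). Cell type markers moved too. Of 8 macrophage markers 3 fell in wild-type, 5 in TRIF-KO-labelled and 2 in MyD88-KO cells, with 1 higher in each. Of 8 neutrophil and precursor markers 2, 4 and 3 fell and 1, 0 and 1 rose in the same genotypes. Of 5 tested dendritic cell markers 2, 2 and 3 rose. In double-KO cells 0 of any of these were called, and their part in the receptors' responses was not tested.

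**Figure D1:**
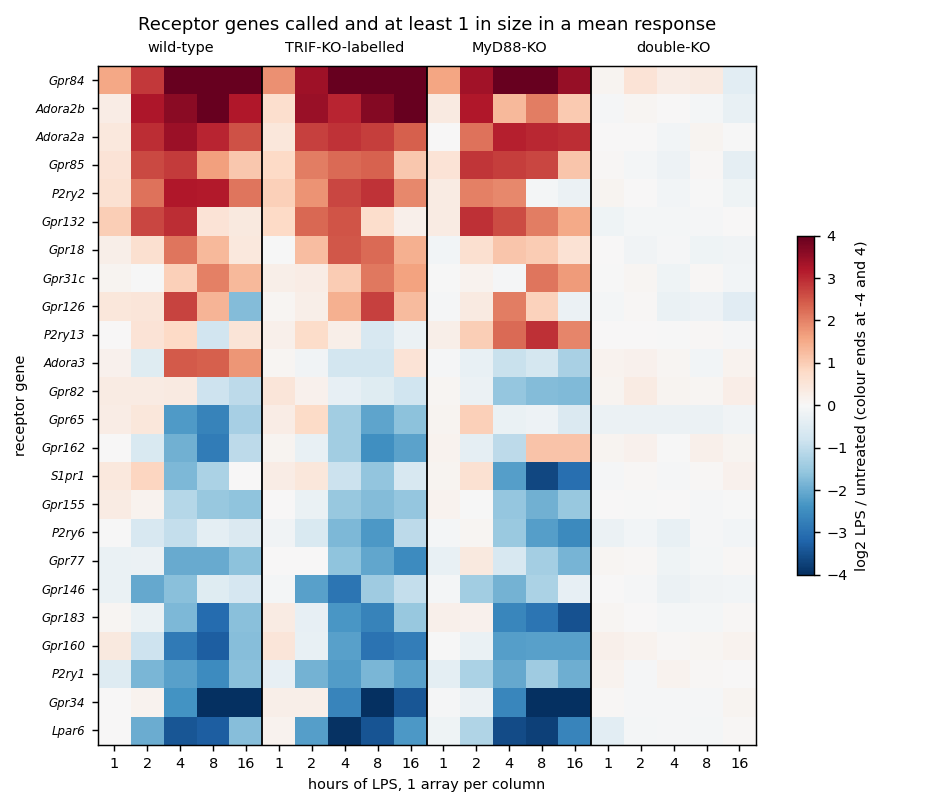
Log2 ratios of LPS-treated over untreated cells for the receptor genes called in at least 1 mean response that had a mean response of at least 1 in size, 1 row per gene and 1 column per array (hours of LPS within each genotype), with colours ending at -4 and 4. Rows at the top (Gpr84, Adora2b, Adora2a) are red and rows at the bottom (Lpar6, Gpr34) blue from 2 or 4 h in the 3 genotypes with an adapter, and pale in double-KO cells.

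The double-KO cells, labelled as lacking both adapters, served as the comparison for the other genotypes. The response differed from that of double-KO cells for 16 receptor genes in wild-type cells (10 higher, 6 lower), where 11.5% of all genes did (5.86% higher, 5.67% lower). It differed for 14 in TRIF-KO-labelled cells (8 higher, 6 lower), where 6.14% of all genes did (3.37% higher, 2.77% lower). It differed for 19 in MyD88-KO cells (8 higher, 11 lower), where 10.4% of all genes did (5.89% higher, 4.54% lower). The 3 differences share the double-KO arrays and are not independent of each other. Without time as a block the counts were 4, 1 and 1, and with slide as a fixed block all 3 were 0. Leaving out 1 array gave as few as 7 in wild-type (without its 4 h array), 6 in TRIF-KO-labelled (without its 8 h array) and 5 in MyD88-KO cells (without its 4 h array), and as many as 21, 22 and 27 without the double-KO array of 1 h. Neither the wild-type nor the TRIF-KO-labelled arrays shared a slide or a scan day with the double-KO arrays. Genotype, slide and scan day cannot be told apart in those differences. On the only slide that held MyD88-KO and double-KO arrays together, MyD88-KO cells at 4, 8 and 16 h read 4.14, 4.45 and 3.47 for Gpr84, against 0.12 in double-KO cells at 1 h. Genotype and time cannot be told apart on that slide, and Gpr84 was taken as the gene with the largest difference. The MyD88-KO array of 1 h, on another slide, read 1.57. Whole cultures were measured, so fewer cells of a kind and less RNA per cell cannot be told apart.

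Receptors whose responses were higher are taken first. Gpr84, a Gi-coupled receptor for medium-chain fatty acids, had the largest difference from double-KO cells. Its probe lies on chromosome 15 at 103138670 to 103138729 (mm9), and the position within the gene was not annotated here. Its log2 ratios at 1, 2, 4, 8 and 16 h were 1.56, 2.83, 4.37, 4.51 and 4.29 in wild-type cells, 1.83, 3.40, 4.86, 4.87 and 4.74 in TRIF-KO-labelled cells and 1.57, 3.37, 4.14, 4.45 and 3.47 in MyD88-KO cells. It stood at 0.12, 0.53, 0.31, 0.36 and -0.42 in double-KO cells. Every array of the genotypes with an adapter lay above every double-KO array, and the array at 1 h was the lowest of each genotype with an adapter. By limma the differences from double-KO, here and below with their standard errors, were 3.33 ± 0.39 in wild-type cells (adjusted p = 0.000384), 3.76 ± 0.39 in TRIF-KO-labelled cells (adjusted p = 0.000138) and 3.22 ± 0.39 in MyD88-KO cells (adjusted p = 0.000742). Over the 20 arrays the log2 ratios most like those of Gpr84 were those of Clec4e (Pearson r = 0.974), Malt1 (0.958), Msantd3 (0.952), Igsf6 (0.950) and Ralgds (0.949), as a description of arrays that share genotypes and times.

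The adenosine receptors Adora2a and Adora2b both couple to Gs and raise cyclic AMP. Adora2a had log2 ratios of 0.43, 2.95, 3.42, 3.06 and 2.53 in wild-type cells, 0.46, 2.72, 2.88, 2.78 and 2.38 in TRIF-KO-labelled cells and 0.02, 2.18, 3.12, 3.02 and 2.95 in MyD88-KO cells. Adora2a stood at 0.02, 0.02, -0.11, 0.12 and -0.002 in double-KO cells. At 1 h the MyD88-KO array lay in the double-KO range and the other arrays a little above it, and from 2 h every array with an adapter lay above it. The differences by limma were 2.47 ± 0.36 in wild-type cells (adjusted p = 0.0014), 2.24 ± 0.36 in TRIF-KO-labelled cells (adjusted p = 0.00431) and 2.25 ± 0.36 in MyD88-KO cells (adjusted p = 0.00436).

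Adora2b, the receptor of lower affinity for adenosine, had log2 ratios of 0.30, 3.24, 3.62, 4.87 and 3.19 in wild-type cells, 0.67, 3.44, 3.04, 3.66 and 4.07 in TRIF-KO-labelled cells and 0.36, 3.21, 1.29, 2.04 and 1.05 in MyD88-KO cells. Adora2b stood at -0.05, 0.09, 0.02, -0.08 and -0.29 in double-KO cells. The genotypes with an adapter read alike at 2 h, after which the MyD88-KO arrays were the lowest of them, still above every double-KO array. Relative to double-KO cells limma gave 3.11 ± 0.51 in wild-type cells (adjusted p = 0.00312), 3.04 ± 0.51 in TRIF-KO-labelled cells (adjusted p = 0.00532) and 1.65 ± 0.51 in MyD88-KO cells (adjusted p = 0.0504), the last of these not passing the threshold. A second Adora2b probe had mean responses of 2.32 in wild-type, 2.19 in TRIF-KO-labelled and 1.11 in MyD88-KO cells, against 0.02 in double-KO cells. In a fit of the times from 4 h alone, added after the courses had been seen and open to the slide difference given below, Adora2b was lower in MyD88-KO than in wild-type cells, with a wild-type minus MyD88-KO difference of 2.44 ± 0.37 (adjusted p = 0.0181).

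Adora3, the Gi-coupled adenosine receptor, followed another course. Its log2 ratios were 0.18, -0.47, 2.46, 2.39 and 1.78 in wild-type cells, 0.07, -0.15, -0.73, -0.73 and 0.54 in TRIF-KO-labelled cells and -0.04, -0.30, -0.90, -0.71 and -1.31 in MyD88-KO cells. Adora3 stood at 0.14, 0.17, 0.09, -0.12 and 0.14 in double-KO cells. The late wild-type arrays were the only ones above 1. Its mean response was 1.27 ± 0.34 (adjusted p = 0.0105) in wild-type cells by limma, and its difference from double-KO cells, 1.19 ± 0.49 (adjusted p = 0.116), did not pass. In the late times the limma difference was 3.18 ± 0.36 (adjusted p = 0.00765) for wild-type minus MyD88-KO and 2.51 ± 0.36 (adjusted p = 0.108) for wild-type minus TRIF-KO-labelled cells, the second not passing. A dimmer probe named Adora3 in the files matches Tmigd3 by accession and was not used. The fourth adenosine receptor, Adora1, was not tested.

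P2ry2, the Gq-coupled receptor for ATP and UTP, had log2 ratios of 0.62, 2.17, 3.19, 3.17 and 2.14 in wild-type cells, 0.95, 1.79, 2.67, 2.89 and 1.91 in TRIF-KO-labelled cells and 0.33, 2.03, 1.91, -0.09 and -0.23 in MyD88-KO cells. P2ry2 stood at 0.11, 0.02, -0.10, -0.02 and -0.19 in double-KO cells. The MyD88-KO arrays at 8 and 16 h lay in or below the double-KO range, unlike those of wild-type and TRIF-KO-labelled cells. By limma the response exceeded that of double-KO cells by 2.29 ± 0.43 in wild-type cells (adjusted p = 0.00607), 2.08 ± 0.43 in TRIF-KO-labelled cells (adjusted p = 0.0143) and 0.83 ± 0.43 in MyD88-KO cells (adjusted p = 0.204), the MyD88-KO difference not passing. The late wild-type minus MyD88-KO difference was 2.30 ± 0.41 (adjusted p = 0.0242).

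Gpr85, an orphan receptor known chiefly from brain, had log2 ratios of 0.53, 2.64, 2.79, 1.64 and 1.08 in wild-type cells, 0.80, 2.05, 2.27, 2.36 and 1.07 in TRIF-KO-labelled cells and 0.54, 2.87, 2.75, 2.66 and 1.1 in MyD88-KO cells. Gpr85 stood at 0.05, -0.08, -0.21, 0.05 and -0.36 in double-KO cells. The arrays at 1 h were the lowest of each genotype with an adapter, and those at 16 h the next lowest. Against double-KO cells limma gave 1.85 ± 0.31 in wild-type cells (adjusted p = 0.00377), 1.82 ± 0.31 in TRIF-KO-labelled cells (adjusted p = 0.00552) and 2.09 ± 0.31 in MyD88-KO cells (adjusted p = 0.00283).

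Gpr132, which responds to oxidised fatty acids and lysophospholipids, had log2 ratios of 0.99, 2.67, 2.94, 0.54 and 0.38 in wild-type cells, 0.81, 2.29, 2.52, 0.69 and 0.20 in TRIF-KO-labelled cells and 0.34, 2.92, 2.61, 2.04 and 1.52 in MyD88-KO cells. Gpr132 stood at -0.17, -0.06, -0.07, -0.05 and 0.01 in double-KO cells. At 8 and 16 h the MyD88-KO arrays stood above those of wild-type and TRIF-KO-labelled cells. The limma differences were 1.57 ± 0.37 in wild-type cells (adjusted p = 0.0185), 1.37 ± 0.37 in TRIF-KO-labelled cells (adjusted p = 0.0422) and 1.95 ± 0.37 in MyD88-KO cells (adjusted p = 0.0102). Under 35 alternatives that of TRIF-KO-labelled cells passed in 15, missed in 19 and reversed in 1 (adjusted p between 0.0141 and 0.999). Its promoter window holds the kappa B consensus match shown above, which says nothing of binding.

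**Figure D2:**
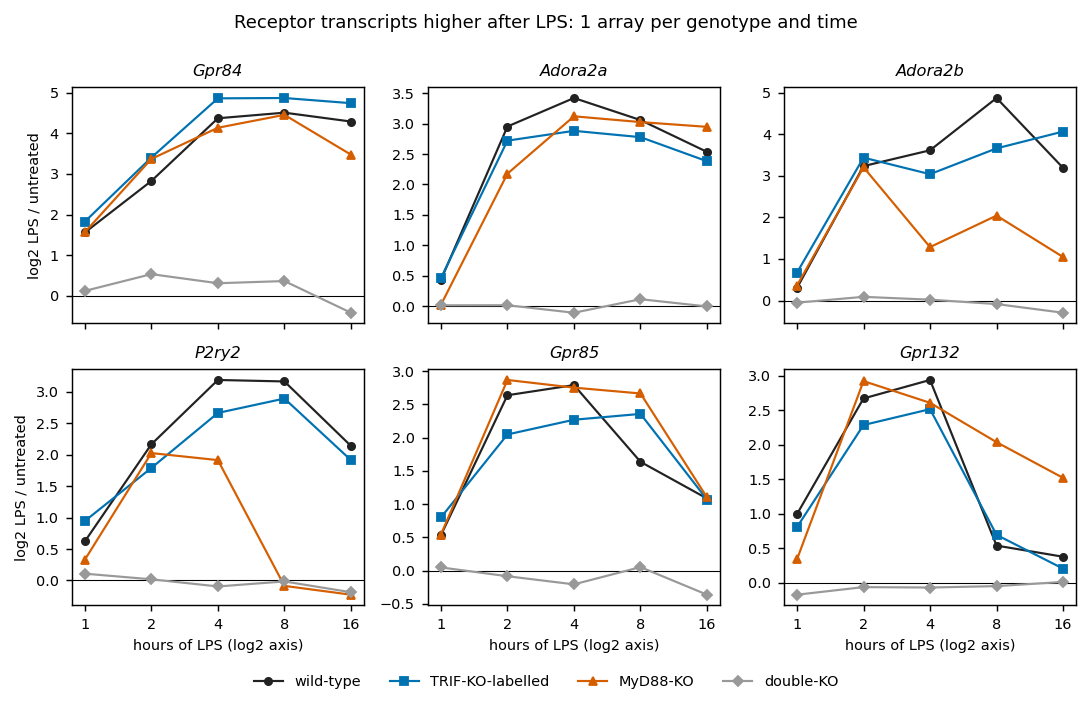
Log2 ratios of LPS-treated over untreated cells (vertical axes) against hours of LPS (log2 axis) for Gpr84, Adora2a, Adora2b, P2ry2, Gpr85 and Gpr132, with 1 point per array and 1 line per genotype. The double-KO line stays between -0.42 and 0.53 in each panel, and the MyD88-KO line of P2ry2 returns to -0.09 at 8 h while the wild-type line is at 3.17.

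Other receptors rose less. Gpr18, reported to bind lipids such as N-arachidonylglycine, had limma differences from double-KO cells of 1.05 (adjusted p = 0.0263) in wild-type and 1.59 (adjusted p = 0.00564) in TRIF-KO-labelled cells, and of 0.74 (adjusted p = 0.0853) in MyD88-KO cells, which did not pass. Lpar1, a lysophosphatidate receptor, differed by 0.80 (adjusted p = 0.03) in wild-type and 1.03 (adjusted p = 0.0157) in MyD88-KO cells, with 0.73 (adjusted p = 0.0572) in TRIF-KO-labelled cells not passing. Gpr31c was higher in TRIF-KO-labelled cells, by 1.09 (adjusted p = 0.0384). Its ratios were at most 0.30 up to 2 h and between 1.30 and 2.13 at 8 and 16 h in the genotypes with an adapter. Another Gpr31c probe matches Gpr31b, a close copy, and the signals of such copies may mix. In wild-type cells S1pr4, a sphingosine 1-phosphate receptor of blood cells, differed by 0.45 (adjusted p = 0.0477), and the adhesion receptor Gpr110 was also called. Both lay near background, S1pr4 being above it on 2 of 5 untreated wild-type and 1 of 5 untreated double-KO arrays and Gpr110 on 1 and 0, so the sizes are uncertain. Lpar1 was above background on 0 of 5 double-KO arrays after LPS. Gpr141 differed by 0.62 (adjusted p = 0.0462) in MyD88-KO cells.

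Gpr35, a Gi-coupled receptor for which kynurenic acid is a reported ligand, lay near background in untreated cells. Its probe was above background there on 0 of 5 double-KO, 0 of 5 TRIF-KO-labelled, 2 of 5 MyD88-KO and 2 of 5 wild-type arrays. LPS-treated RNA was above background for Gpr35 on every array that carried it in Cy5, and not on the swapped MyD88-KO array at 2 h, whose ratio was -1.19 after its sign was turned. Its log2 ratios were 0.80, 1.88, 0.50, 0.79 and 0.73 in wild-type cells and 0.10, 0.73, 0.89, 1.19 and 0.76 in double-KO cells, most of them against an untreated signal at background. The LPS-treated mean was at least 1.6-fold higher in double-KO cells (adjusted p = 0.464 by limma) and at least 1.44-fold higher in TRIF-KO-labelled cells (adjusted p = 0.139), each set against the lowest signal well above background where the untreated value was under it. The wild-type mean response was 0.94 ± 0.28 (adjusted p = 0.0156) by limma. A dimmer Gpr35 probe, above background on 6 arrays, had a mean response of 0.38 in wild-type cells, with 0.06 for TRIF-KO-labelled, -0.08 for MyD88-KO and -0.01 for double-KO cells. For the brighter Gpr35 probe Cy5 read higher than Cy3 on every array, also on the swapped one, where Cy5 held untreated RNA. With LPS-treated RNA in Cy5 on all but 1 array, dye and response cannot be told apart for Gpr35. Neither the folds nor the wild-type mean response is therefore read as an effect of LPS, and the part of the dye was not tested.

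Receptors whose responses were lower follow. P2ry1, the Gq-coupled ADP receptor, had log2 ratios of -0.52, -1.84, -2.16, -2.52 and -1.68 in wild-type cells, -0.34, -1.88, -2.23, -1.82 and -2.17 in TRIF-KO-labelled cells and -0.38, -1.28, -2.05, -1.42 and -1.97 in MyD88-KO cells. P2ry1 stood at 0.13, -0.05, 0.14, 0.06 and 0.02 in double-KO cells. Every array with an adapter lay below every double-KO array, least so at 1 h. The limma differences from double-KO were -1.80 ± 0.25 in wild-type cells (adjusted p = 0.000966), -1.75 ± 0.25 in TRIF-KO-labelled cells (adjusted p = 0.00189) and -1.48 ± 0.25 in MyD88-KO cells (adjusted p = 0.00588).

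Lpar6, a G12/13-coupled lysophosphatidate receptor, had log2 ratios of 0.01, -1.99, -3.41, -3.31 and -1.69 in wild-type cells, 0.13, -2.19, -3.95, -3.46 and -2.29 in TRIF-KO-labelled cells and -0.17, -1.20, -3.57, -3.73 and -2.64 in MyD88-KO cells. Lpar6 stood at -0.42, -0.07, -0.05, -0.09 and 0.03 in double-KO cells. From 2 h all arrays with an adapter lay below the double-KO arrays, whereas those at 1 h did not, and the lowest double-KO value was that of 1 h. By limma the differences were -1.96 ± 0.49 in wild-type cells (adjusted p = 0.0223), -2.23 ± 0.49 in TRIF-KO-labelled cells (adjusted p = 0.0184) and -2.15 ± 0.49 in MyD88-KO cells (adjusted p = 0.0205). A second Lpar6 probe had mean responses of -2.24 in wild-type, -2.45 in TRIF-KO-labelled and -2.24 in MyD88-KO cells, against -0.08 in double-KO cells.

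Gpr34, a receptor for lysophosphatidylserine common on myeloid cells, had log2 ratios of 0.01, 0.13, -2.39, -4.07 and -4.33 in wild-type cells, 0.25, 0.23, -2.63, -4.10 and -3.42 in TRIF-KO-labelled cells and -0.05, -0.22, -2.62, -3.98 and -5.74 in MyD88-KO cells. Gpr34 stood at 0.06, -0.05, -0.04, -0.06 and 0.10 in double-KO cells. Arrays at 1 and 2 h were near 0 in all genotypes, and those at 4, 8 and 16 h were below -2 wherever an adapter was left. After LPS the wild-type array of 16 h was not above background, so its -4.33 is a bound on the fall. The limma differences were -2.13 ± 0.66 in wild-type cells (adjusted p = 0.0486), -1.93 ± 0.66 in TRIF-KO-labelled cells (adjusted p = 0.0899) and -2.52 ± 0.66 in MyD88-KO cells (adjusted p = 0.0322), that of TRIF-KO-labelled cells not passing. Under 35 alternatives the wild-type difference passed in 9 and missed in 26 (adjusted p between 0.00383 and 0.991), and that of MyD88-KO cells passed in 25 and missed in 10. Gpr34 also had the steepest slope of the tested receptor genes, -1.32 ± 0.12 per doubling of time in the genotypes with an adapter (adjusted p = 1.63e-06 by limma).

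Gpr183 (EBI2), whose oxysterol ligands position immune cells, had log2 ratios of 0.07, -0.27, -1.80, -3.07 and -1.66 in wild-type cells, 0.33, -0.34, -2.31, -2.68 and -1.50 in TRIF-KO-labelled cells and 0.20, 0.17, -2.60, -2.91 and -3.48 in MyD88-KO cells. Gpr183 stood at 0.07, 0.0039, -0.09, -0.07 and 0.05 in double-KO cells. The arrays at 1 h lay at the top of the double-KO range or above it, those at 2 h on either side of it, and those from 4 h below it. The difference passed in MyD88-KO cells only by limma, with -1.34 ± 0.46 in wild-type cells (adjusted p = 0.0683), -1.29 ± 0.46 in TRIF-KO-labelled cells (adjusted p = 0.101) and -1.71 ± 0.46 in MyD88-KO cells (adjusted p = 0.0348), and whether the genotypes differ was not shown, since the wild-type minus MyD88-KO difference was 0.38 ± 0.46 (adjusted p = 0.742).

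Gpr160, an orphan receptor, had log2 ratios of 0.38, -0.82, -2.84, -3.29 and -1.70 in wild-type cells, 0.50, -0.31, -2.16, -2.94 and -2.75 in TRIF-KO-labelled cells and -0.03, -0.26, -2.21, -2.18 and -2.16 in MyD88-KO cells. Gpr160 stood at 0.21, 0.15, 0.05, 0.09 and 0.14 in double-KO cells. The genotypes with an adapter lay below every double-KO array from 2 h, the MyD88-KO array at 1 h too, by little at 2 h and by more at 4 h and later. The limma differences were -1.78 ± 0.43 in wild-type cells (adjusted p = 0.0188), -1.66 ± 0.43 in TRIF-KO-labelled cells (adjusted p = 0.0344) and -1.50 ± 0.43 in MyD88-KO cells (adjusted p = 0.0407).

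S1pr1, the Gi-coupled sphingosine 1-phosphate receptor that lymphocytes need to leave lymphoid organs, had log2 ratios of 0.42, 0.85, -1.80, -1.27 and 0.02 in wild-type cells, 0.29, 0.46, -0.85, -1.59 and -0.64 in TRIF-KO-labelled cells and 0.10, 0.60, -2.20, -3.65 and -3.02 in MyD88-KO cells. S1pr1 stood at -0.04, 0.06, -0.04, 0.05 and 0.17 in double-KO cells. Wild-type and MyD88-KO arrays parted after 4 h, the wild-type value at 16 h being back in the double-KO range. The limma differences from double-KO were -0.40 ± 0.49 in wild-type cells (adjusted p = 0.626), -0.50 ± 0.49 in TRIF-KO-labelled cells (adjusted p = 0.582) and -1.67 ± 0.49 in MyD88-KO cells (adjusted p = 0.0448). That of MyD88-KO cells passed in 16 of 35 alternatives and missed in 19 (adjusted p between 0.00085 and 0.664). In the late times S1pr1 had a wild-type minus MyD88-KO difference of 1.94 ± 0.42 (adjusted p = 0.0402) by limma. Its TRIF-KO-labelled minus MyD88-KO difference was 1.93 ± 0.42 (adjusted p = 0.0214). Untreated log2 levels at these times were 10.91, 10.25 and 10.18 in wild-type and 11.93, 11.99 and 11.76 in MyD88-KO cells. After LPS they were 9.11, 8.98 and 10.20 in wild-type and 9.74, 8.34 and 8.73 in MyD88-KO cells. The wild-type minus MyD88-KO difference of ratios therefore carries a difference in untreated levels.

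**Figure D3:**
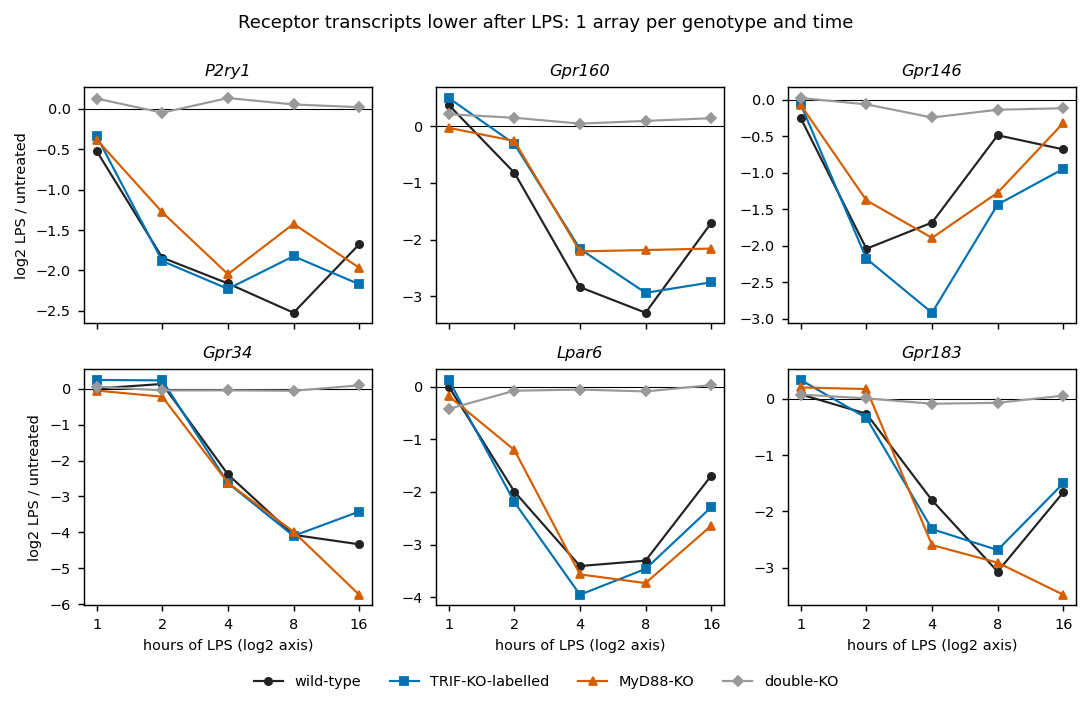
Log2 ratios of LPS-treated over untreated cells (vertical axes) against hours of LPS (log2 axis) for P2ry1, Gpr160, Gpr146, Gpr34, Lpar6 and Gpr183, with 1 point per array and 1 line per genotype. At 16 h Gpr34 reaches -5.74 in MyD88-KO cells and -4.33, a bound, in wild-type cells, and the double-KO lines stay between -0.42 and 0.21.

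Among further lower receptors, Gpr146, an orphan, differed from double-KO cells by -1.40 (adjusted p = 0.0147) in TRIF-KO-labelled cells by limma, with -0.92 (adjusted p = 0.0513) in wild-type and -0.88 (adjusted p = 0.0623) in MyD88-KO cells not passing. Its ratios were lowest at 2 h in wild-type cells (-2.04) and at 4 h in TRIF-KO-labelled (-2.92) and MyD88-KO cells (-1.89). Gpr77 (C5ar2), which binds the complement fragment C5a, differed by -1.22 (adjusted p = 0.0277) in wild-type and -1.22 (adjusted p = 0.0378) in TRIF-KO-labelled cells. Gpr155 differed in TRIF-KO-labelled cells by -1.0 (adjusted p = 0.0391) and in MyD88-KO cells by -0.97 (adjusted p = 0.0374). The orphan Gpr82 differed in MyD88-KO cells by -1.22 (adjusted p = 0.0151 by limma). After LPS Gpr82 was not above background on the MyD88-KO arrays of 4, 8 and 16 h, so its fall there is a bound. The adhesion receptor Gpr56 differed in wild-type cells by -0.55 (adjusted p = 0.0155). Gpr19 and Gpr125 had smaller differences in MyD88-KO cells, of -0.75 and -0.36, both passing.

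P2ry6, P2ry10, P2ry12, P2ry14, S1pr2, S1pr3, Lpar2, Lpar4 and Lpar5 passed in none of the 3 differences from double-KO cells by limma. P2ry6, the UDP receptor, had mean responses of -0.51 (adjusted p = 0.136) in wild-type, -1.18 (adjusted p = 0.00416) in TRIF-KO-labelled and -1.25 (adjusted p = 0.00283) in MyD88-KO cells by limma, of which only the last 2 passed. P2ry10, a lysophosphatidylserine receptor, lay between -0.22 and 0.36 on all 20 arrays. S1pr2, which couples to G12/13, had mean responses of -0.60 (adjusted p = 0.0277) in wild-type, -0.72 (adjusted p = 0.014) in TRIF-KO-labelled and 0.25 (adjusted p = 0.352) in MyD88-KO cells. S1pr3 lay between -0.10 and 0.38. Lpar5 fell in each genotype with an adapter, with mean responses of -0.35 (adjusted p = 0.00446) in wild-type, -0.34 (adjusted p = 0.00713) in TRIF-KO-labelled and -0.29 (adjusted p = 0.0132) in MyD88-KO cells. Lpar2 and Lpar4 passed in none of the mean responses.

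Of the 6 differences between genotypes, the 3 among genotypes with an adapter called 0 receptor genes over all times by limma, with 0 of all genes called too (0%). At an unadjusted p under 0.05 there were 3 for wild-type minus TRIF-KO-labelled, 22 for wild-type minus MyD88-KO and 20 for TRIF-KO-labelled minus MyD88-KO, beside 1608, 3219 and 4090 of all genes (21961 tested in the first, 21960 in the others). The time courses parted after 2 h, and a fit of the 12 arrays of 4, 8 and 16 h alone was added once those courses had been seen, so its calls are not independent of that choice. It called 10 receptor genes for wild-type minus MyD88-KO (5 higher, 5 lower), where 3.75% of all genes were called (1.72% higher, 2.03% lower). For TRIF-KO-labelled minus MyD88-KO it called 16 (7 higher, 9 lower), against 10.9% of all genes (3.98% higher, 6.88% lower). For wild-type minus TRIF-KO-labelled it called 0, against 0.0137% of all genes. There an unadjusted p under 0.05 held for 6 receptor genes, beside 2016 of the 21960 genes tested. Against double-KO cells it called 22 in wild-type (11 higher, 11 lower; 13% of all genes, 6.18% higher and 6.8% lower), 21 in TRIF-KO-labelled (8 higher, 13 lower; 12.3%, 5.63% higher and 6.69% lower) and, for MyD88-KO cells, 27 (14 higher, 13 lower; 21.8%, 10.7% higher and 11.1% lower). Its mean responses called 35 in wild-type (33.9% of all genes, 15.7% higher and 18.2% lower), 34 in TRIF-KO-labelled (30.1%, 13.4% higher and 16.6% lower) and 42 in MyD88-KO cells (42.5%, 20.6% higher and 21.9% lower), and 1, Gpr35, described above as near background in untreated cells, in double-KO cells (0.92%). The MyD88-KO arrays of these times lay on 1 slide and were scanned on day 2, and the wild-type and TRIF-KO-labelled arrays lay on other slides scanned on day 1, so genotype and slide cannot be told apart in these differences.

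The ADP receptors P2ry12 and P2ry13 and the UDP-glucose receptor P2ry14, all Gi-coupled, lie beside each other on chromosome 3 with Gpr171. Their probes (mm9) start at 58901142 for Gpr171, 58918548 for P2ry14, 59012054 for P2ry13 and 59020598 for P2ry12, which puts P2ry13 and P2ry12 8.54 kb apart. P2ry13 had log2 ratios of 0.03, 0.55, 0.79, -0.78 and 0.52 in wild-type cells, 0.19, 0.74, 0.24, -0.63 and -0.22 in TRIF-KO-labelled cells and 0.23, 1.00, 2.27, 2.92 and 1.96 in MyD88-KO cells, and stayed between -0.06 and 0.04 in double-KO cells. From 4 h the MyD88-KO arrays were the highest. Its MyD88-KO minus double-KO difference was 1.67 ± 0.40 (adjusted p = 0.0254) by limma, and its late wild-type minus MyD88-KO difference -2.21 ± 0.38 (adjusted p = 0.0231).

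P2ry14 had log2 ratios of 0.14, 0.25, 0.22, -0.96 and -1.12 in wild-type cells, -0.05, -0.11, -0.99, -1.48 and -2.01 in TRIF-KO-labelled cells and 0.14, -0.07, 0.81, 1.33 and 1.45 in MyD88-KO cells. Late values were above 0 in MyD88-KO cells and below 0 in TRIF-KO-labelled cells. Untreated log2 levels of P2ry14 at these times were 13.62, 14.56 and 14.78 in wild-type, 13.32, 14.84 and 14.98 in TRIF-KO-labelled and 13.41, 13.88 and 13.89 in MyD88-KO cells. After LPS they were 13.84, 13.60 and 13.66 in wild-type, 12.34, 13.36 and 12.97 in TRIF-KO-labelled and 14.22, 15.20 and 15.33 in MyD88-KO cells. Differences of P2ry14 ratios therefore carry differences in untreated levels. The late limma difference was -1.82 ± 0.34 (adjusted p = 0.0277) for wild-type minus MyD88-KO and -2.69 ± 0.34 (adjusted p = 0.00459) for TRIF-KO-labelled minus MyD88-KO. P2ry12 had log2 ratios of -0.15, -0.09, -0.55, -1.77 and -0.67 in wild-type cells, 0.19, 0.14, -0.47, -2.09 and -2.06 in TRIF-KO-labelled cells and 0.04, -0.17, 0.44, 1.24 and -0.16 in MyD88-KO cells. Its 8 h values stood on opposite sides of 0 in MyD88-KO and in the other cells with an adapter. Untreated P2ry12 levels at 8 h were 10.47 in wild-type, 10.53 in TRIF-KO-labelled and 9.74 in MyD88-KO cells. After LPS they were 8.71, 8.44 and 10.99 in the same order. The late TRIF-KO-labelled minus MyD88-KO difference was -2.05 ± 0.48 (adjusted p = 0.0268), and that of wild-type minus MyD88-KO, -1.51 ± 0.48 (adjusted p = 0.109), did not pass. The fourth neighbour, Gpr171, read 0.05, 0.13, -0.15, -0.55 and -1.46 in MyD88-KO and -0.12, -0.21, 0.06, -0.39 and -0.89 in wild-type cells, lowest at 16 h in both. Platelet and megakaryocyte markers, listed because platelets carry P2ry12, summed to between 15.3 and 15.6 in untreated MyD88-KO and to between 14.2 and 15.6 in wild-type cells, with Gp1ba, Gp9 and Itga2b above background on no array of these genotypes or on too few arrays to be kept, and their part was not tested. Of the 3 such markers tested, 2 rose after LPS in TRIF-KO-labelled cells (median 0.87), 1 fell in MyD88-KO cells (median -0.12) and 0 were called in wild-type cells (median 0.10).

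Gpr65, a proton sensor that couples to Gs, had log2 ratios of 0.28, 0.47, -2.27, -2.68 and -1.32 in wild-type cells, 0.31, 0.77, -1.40, -2.10 and -1.63 in TRIF-KO-labelled cells and 0.11, 0.94, -0.26, -0.21 and -0.59 in MyD88-KO cells. It was below -1 from 4 h in wild-type and TRIF-KO-labelled cells and not in MyD88-KO cells. Its late differences by limma were -1.74 ± 0.30 (adjusted p = 0.0221) for wild-type minus MyD88-KO and -1.36 ± 0.30 (adjusted p = 0.0216) for TRIF-KO-labelled minus MyD88-KO. For the orphan Gpr162 the late TRIF-KO-labelled minus MyD88-KO difference was -2.41 ± 0.58 (adjusted p = 0.0305). S1pr2 showed -1.29 (adjusted p = 0.0206) for wild-type minus MyD88-KO and -1.59 (adjusted p = 0.00516) for TRIF-KO-labelled minus MyD88-KO.

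**Figure D4:**
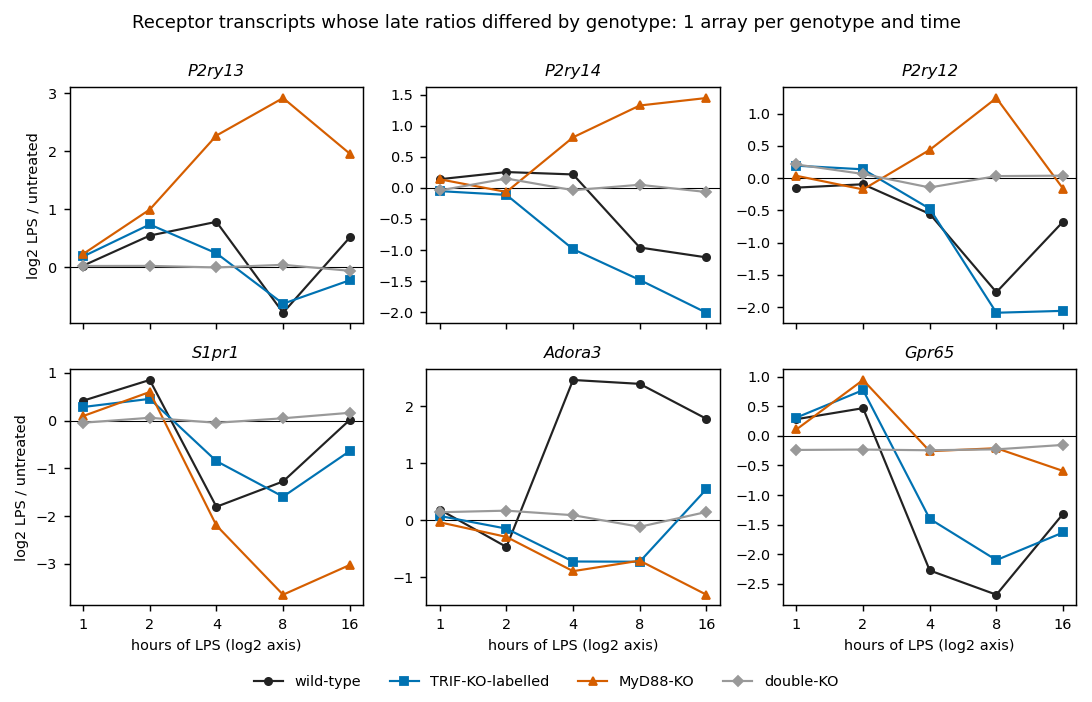
Log2 ratios of LPS-treated over untreated cells (vertical axes) against hours of LPS (log2 axis) for P2ry13, P2ry14, P2ry12, S1pr1, Adora3 and Gpr65, with 1 point per array and 1 line per genotype. At 8 h the MyD88-KO line of P2ry13 is at 2.92 and the wild-type line at -0.78, while for Adora3 the wild-type line is at 2.39 and the MyD88-KO line at -0.71.

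Neighbouring receptor genes did not always move one way. Gpr18 and Gpr183 lie 40.3 kb apart on chromosome 14, and the first was higher and the second lower after LPS in each genotype with an adapter. P2ry6 and P2ry2 lie 59.4 kb apart on chromosome 7, with P2ry2 higher in wild-type and TRIF-KO-labelled cells and P2ry6 lower in TRIF-KO-labelled and MyD88-KO cells. Gpr34 and Gpr82 lie 26.5 kb apart on chromosome X and were both lower in MyD88-KO cells.

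Time was tested as 1 slope per doubling of hours, shared by the 15 arrays of the genotypes with an adapter. Among the receptor genes 23 had a slope by limma (8 rising, 15 falling), where 17.3% of all genes did (7.6% rising, 9.74% falling). The steepest falls after Gpr34 were those of Gpr183, -0.76 ± 0.13 (adjusted p = 0.000748), and Gpr160, -0.73 ± 0.12 (adjusted p = 0.000596). The steepest rises were those of Gpr84, 0.64 ± 0.12 (adjusted p = 0.00112), Adora2a, 0.50 ± 0.14 (adjusted p = 0.0185), and Gpr31c, 0.48 ± 0.08 (adjusted p = 0.000546).

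Untreated cells, cultured in serum-free medium for the same times, were compared in their log2 levels in Cy3, from 19 arrays because the swapped MyD88-KO array was left out. By limma 28 receptor genes differed in double-KO from wild-type cells (13 higher, 15 lower), where 25.8% of all genes did (15.1% higher, 10.7% lower). In MyD88-KO cells 11 differed (8 higher, 3 lower; 2 without its 16 h array), against 9.64% of all genes (6.08% higher, 3.55% lower). In TRIF-KO-labelled cells 0 differed, against 0.342% of all genes. At an unadjusted p under 0.05 there were 6 in TRIF-KO-labelled cells, beside 2893 of the 21961 genes tested. Eif2s3y was high in double-KO and TRIF-KO-labelled cells and low in wild-type cells. Sex therefore cannot be told apart from genotype in double-KO against wild-type cells alone. The TRIF-KO-labelled cells, which shared the high Eif2s3y, had the 0 calls given above, and the part of sex was not tested. With slide as a fixed block 9 and 3 receptor genes were called in the first and second of these comparisons, with scan day as a block 14 and 2, and without time as a block 16 and 1.

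Gpr84 and Adora2a differed between genotypes in the untreated cultures. Untreated Gpr84 had log2 levels of 8.73, 8.42, 8.34, 9.03 and 10.53 in double-KO cells and 10.81, 11.41, 11.29 and 10.63 in MyD88-KO cells at 1, 4, 8 and 16 h, against 12.47, 12.80, 12.49, 12.49 and 11.43 in wild-type cells. All double-KO arrays lay below all wild-type arrays, and all MyD88-KO arrays below them too. The double-KO minus wild-type difference was -3.33 ± 0.36 (adjusted p = 9.67e-06) by limma, and the MyD88-KO minus wild-type difference -1.31 ± 0.39 (adjusted p = 0.0452).

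Adora2a had untreated levels of 8.73, 8.44, 8.81, 8.53 and 8.83 in double-KO cells, against 9.19, 10.08, 12.48, 12.20 and 11.04 in wild-type cells. Every wild-type array lay above every double-KO array, and the wild-type arrays at 4 and 8 h were the highest. The genotypes were closest at 1 h, with 8.73 in double-KO and 9.19 in wild-type cells. Its double-KO minus wild-type difference was -2.33 ± 0.46 (adjusted p = 0.00205) by limma. Fitted over all genotypes by limma, its slope per doubling of time was 0.56 ± 0.14 (adjusted p = 0.0052). The double-KO levels stayed between 8.44 and 8.83, so this shared slope does not describe double-KO cells. Gpr162 averaged 10.4 ± 0.75 in double-KO cells (SD, n = 5) and 12.9 ± 0.23 in wild-type cells (n = 5), a difference of -2.53 ± 0.18 (adjusted p = 1.46e-07). Ranges of the 2 genotypes did not overlap for Gpr162.

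Untreated levels of Gpr34 averaged 14.8 ± 0.44 in double-KO (SD, n = 5), 13.5 ± 0.48 in MyD88-KO (n = 4) and 12.8 ± 1.15 in TRIF-KO-labelled cells (n = 5), against 12.7 ± 0.85 in wild-type cells (n = 5). Every double-KO array was above every wild-type array, and the TRIF-KO-labelled average was near that of wild-type cells. The part of sex in these levels was not tested. By limma the double-KO minus wild-type difference of this X-linked gene was 2.12 ± 0.24 (adjusted p = 1.35e-05). Its X-linked neighbour Gpr82 differed by 1.75 ± 0.15 (adjusted p = 1.15e-06), with averages of 9.82 ± 0.32 in double-KO and 8.25 ± 0.23 in TRIF-KO-labelled cells, against 8.07 ± 0.17 in wild-type cells.

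P2ry1 averaged 12.3 ± 0.77 in double-KO cells, against 10.9 ± 0.82 in wild-type cells. The ranges overlapped across times, but each double-KO array exceeded the wild-type array of its own time. The limma difference with time as a block was 1.44 ± 0.12 (adjusted p = 1.18e-06). S1pr1 averaged 11.9 ± 0.19 in double-KO and 11.9 ± 0.12 in MyD88-KO cells, against 10.6 ± 0.37 in wild-type cells, with differences of 1.31 ± 0.19 (adjusted p = 0.000167) for double-KO and 1.24 ± 0.21 (adjusted p = 0.00244) for MyD88-KO cells. Neither range overlapped that of wild-type cells. Gpr183 differed by 1.14 (adjusted p = 0.000917) and Lpar6 by 0.95 (adjusted p = 0.000114) in double-KO cells.

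Among receptors lower in untreated double-KO cells, P2ry14 differed by -0.82 (adjusted p = 0.0105), Gpr132 by -0.70 (adjusted p = 0.0176) and Adora2b by -0.55 (adjusted p = 0.0189). The near-identical Gpr137b and Gpr137b-ps were called in opposite directions, 0.68 and -0.78, and their probes may share signal.

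**Figure D5:**
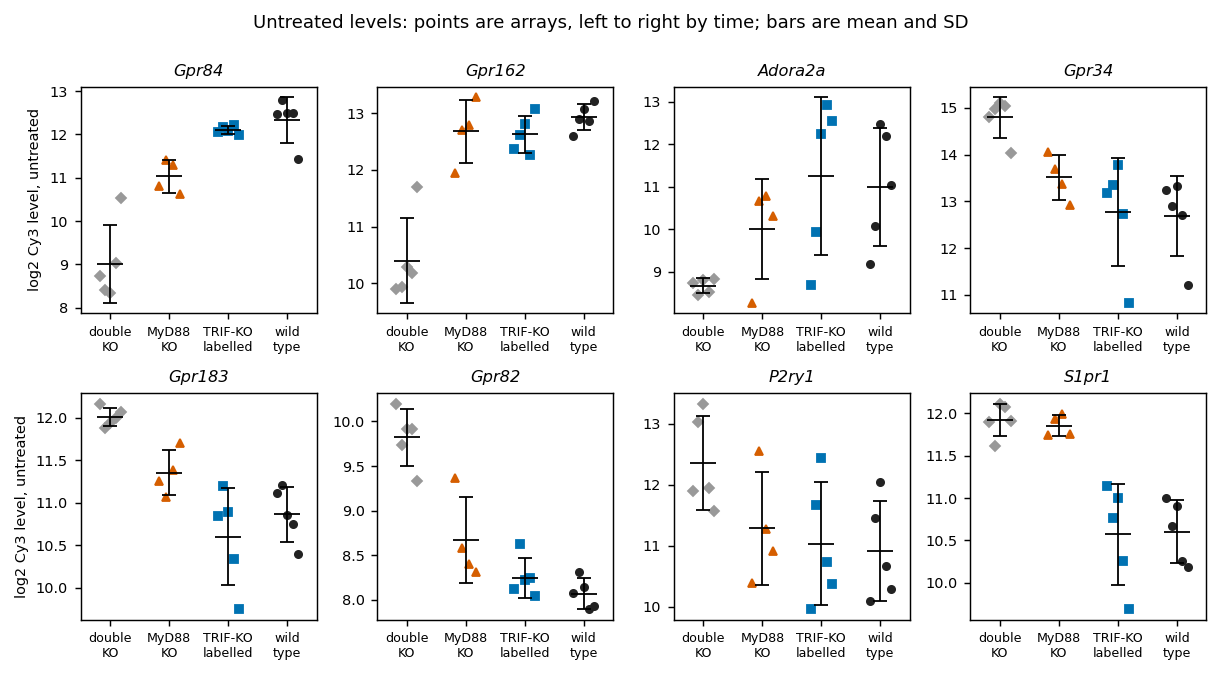
Untreated log2 levels in Cy3 of 8 receptor genes in double-KO, MyD88-KO, TRIF-KO-labelled and wild-type cells, with 1 point per array from left to right by time and bars for mean and SD (n = 5, but 4 for MyD88-KO). Gpr84 averages 9.01 in double-KO and 12.3 in wild-type cells, and Gpr34 14.8 in double-KO and 12.7 in wild-type cells.

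Untreated levels also moved with time in culture. Over all genotypes 30 receptor genes had a slope by limma (17 rising, 13 falling), where 31.1% of all genes did (15.3% rising, 15.8% falling). After Adora2a the steepest rises were those of the adhesion receptor Gpr126, 0.41 ± 0.04 (adjusted p = 2.07e-07), and Gpr176, 0.37 ± 0.10 (adjusted p = 0.00794). Gpr56 had a slope of -0.42 ± 0.05 (adjusted p = 3.34e-06) and Gpr98 (Adgrv1) one of -0.36 ± 0.03 (adjusted p = 3.8e-08), also per doubling of time. A ratio of LPS-treated over untreated cells carries such changes of the untreated cells.

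Genes around the receptors were taken from lists by function, and their responses are set against those of double-KO cells. Over all genes 5.86% were higher and 5.67% lower in wild-type cells, 3.37% and 2.77% in TRIF-KO-labelled cells and 5.89% and 4.54% in MyD88-KO cells, with medians of -0.02, -0.04 and -0.02. Of 16 tested lipid and metabolite receptors outside the name pattern, 2 were higher and 2 lower in wild-type than in double-KO responses, 2 and 1 in TRIF-KO-labelled cells and 2 and 2 in MyD88-KO cells, with medians of 0.04, -0.05 and -0.08. The niacin and ketone body receptor Hcar2 differed by 2.39 (adjusted p = 0.0232) in wild-type, 3.07 (adjusted p = 0.0116) in TRIF-KO-labelled and 2.82 (adjusted p = 0.0173) in MyD88-KO cells by limma. Ptafr, the receptor for platelet-activating factor, differed by 1.45 (adjusted p = 0.0326) in wild-type and 1.84 (adjusted p = 0.0181) in MyD88-KO cells. Cnr2, a cannabinoid receptor, was lower, with differences of -0.52 (adjusted p = 0.0419) in wild-type cells, -0.75 (adjusted p = 0.0146) in TRIF-KO-labelled cells and -0.63 (adjusted p = 0.0268) in MyD88-KO cells.

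For the enzymes that make and remove receptor ligands, 19 genes of sphingosine 1-phosphate and lysophosphatidate metabolism were tested. In wild-type cells 5 were higher and 0 lower than in double-KO responses, in TRIF-KO-labelled cells 4 and 1, and in MyD88-KO cells 4 and 1, with medians of -0.04, -0.16 and 0.13. Sphk1, which makes sphingosine 1-phosphate, differed by 2.61 (adjusted p = 0.00659) in wild-type cells by limma, with 0.97 (adjusted p = 0.245) in TRIF-KO-labelled and 1.26 (adjusted p = 0.104) in MyD88-KO cells not passing. Plpp3, a lipid phosphatase that removes lysophosphatidate, differed by 1.85 (adjusted p = 0.012) in wild-type cells, 2.10 (adjusted p = 0.00982) in TRIF-KO-labelled cells and 1.84 (adjusted p = 0.0175) in MyD88-KO cells.

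Among 11 tested genes of oxysterol, succinate and fatty acid ligand metabolism, 3 were higher and 1 lower in wild-type cells, 2 and 0 in TRIF-KO-labelled cells and 3 and 0 in MyD88-KO cells (medians -0.14, -0.17 and -0.02). Acod1, which makes itaconate, differed by 4.27 (adjusted p = 0.00101) in wild-type cells, 4.35 (adjusted p = 0.00131) in TRIF-KO-labelled cells and 4.84 (adjusted p = 0.000742) in MyD88-KO cells by limma. Ch25h, which starts the synthesis of the Gpr183 ligand, differed by 2.25 (adjusted p = 0.0448) in wild-type and 3.17 (adjusted p = 0.0172) in MyD88-KO cells, with 1.54 (adjusted p = 0.181) in TRIF-KO-labelled cells not passing. Of 17 genes of extracellular nucleotide and adenosine handling, 0 were higher and 1 lower in wild-type cells, 0 and 1 in TRIF-KO-labelled cells and 1 and 1 in MyD88-KO cells (medians -0.18, -0.14 and -0.23). P2rx5, an ATP-gated channel, differed by 1.67 (adjusted p = 0.0249) in MyD88-KO cells and P2rx7, another, by -1.22 (adjusted p = 0.0353) in TRIF-KO-labelled cells.

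Downstream of the receptors, 26 genes of G proteins, adenylate cyclases and receptor kinases were tested. In wild-type cells 3 were higher and 2 lower, in TRIF-KO-labelled cells 1 and 0, and in MyD88-KO cells 4 and 3, with medians of -0.12, -0.13 and -0.13. Pde4b, which breaks down the cyclic AMP that Gs-coupled receptors raise, differed by 2.54 (adjusted p = 0.000857) in wild-type cells, 2.83 (adjusted p = 0.000403) in TRIF-KO-labelled cells and 2.27 (adjusted p = 0.00293) in MyD88-KO cells by limma. Adcy9, an adenylate cyclase, differed by -1.28 (adjusted p = 0.0276) in MyD88-KO cells, and the arrestin Arrb1 by -1.22 (adjusted p = 0.0462) in wild-type cells.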

How the data were processed

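Expression was measured on 20 arrays of 2 colours. Per the file headers, the authors' scanner files came from Agilent Feature Extraction 10.10.1.1 and give the mean intensity and background intensity of each spot and channel before correction. They also hold the authors' processed intensities and log10 ratios (Cy5 over Cy3). The authors' value table gave the same ratio (largest difference 5e-10, every column median 0). Intensities were background-corrected (normexp, offset 50), normalized by loess and set as log2 ratios of LPS-treated over untreated RNA with limma 3.58.1 in R 4.3.3, the sign being turned for the swapped array. Untreated log2 levels are those of Cy3 with each array's mean of both log2 channels quantile-normalized after loess. Probes had to be well above background on 3 arrays, and the brightest such probe stood for its gene. Probe coordinates are those of mm9 in the files, and no genome was used.

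All genes were fitted together with limma (genotype plus time, prior variance with a trend over mean intensity; adjusted p by Benjamini and Hochberg, threshold 0.05), after tests on simulated data. A first run took the mean ratio as covariate of that trend; it was corrected and is kept as an alternative. Replicate numbers are time points, per the labels: deviations of same-time ratios correlated at 0.22 to 0.83 among the genotypes with an adapter and at -0.19 to 0.13 with double-KO, and those of untreated levels at 0.13 to 0.81.

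Members and lists were chosen with earlier results of these data known. Described on every array are at most 12 members called against double-KO with a difference of at least 1 and above background on 10 arrays, by size. Adora3, P2ry12, P2ry13, P2ry14, Gpr35, Gpr65 and, in part, Gpr171 are also given array by array; they fall outside that rule and were chosen after their values were seen. The other called members and all tested P2ry, Adora, S1pr and Lpar members are given by fitted values or ranges, except a few genes that are counted but not reported here by name. Alternatives covered background, normalization, filter, probes, blocks, dye and left-out arrays. The number of arrays limits the precision.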

Additional observations from a re-analysis of the deposited data

Results flagged for a closer look

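Of 48 groups of 5 arrays examined (12 receptor genes in 4 genotypes), 3 held an array far from the others. The rule would flag about 1 in 20 groups of like arrays. The arrays of a group differ in time, so that rate does not hold here. All 3 were arrays of 1 h, so time and array cannot be told apart. Adora2a in TRIF-KO-labelled cells had a log2 ratio of 0.46 at 1 h, while the other arrays lay between 2.38 and 2.88. P2ry1 in TRIF-KO-labelled cells stood at -0.34 at 1 h, above the others, which lay between -2.23 and -1.82. Lpar6 in double-KO cells stood at -0.42 at 1 h, while the others lay between -0.09 and 0.03. The double-KO array of 1 h was the only one of its genotype on the slide it shared with 3 MyD88-KO arrays.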

How the results depend on the processing

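Where 3 counts of called receptor genes stand together, they are those of wild-type cells, then TRIF-KO-labelled cells, then MyD88-KO cells. Except for the late times, shares over all genes were not computed for these alternatives, so the changes are not read as particular to the receptors. Without the replicate block (pairing by time), the differences from double-KO called 4, 1 and 1, and the untreated MyD88-KO and double-KO differences 1 and 16. With slide as a fixed block, mean responses called 0, 13 and 9, differences from double-KO 0, 0 and 0, the response slope 8, untreated MyD88-KO and double-KO 3 and 9, and the untreated slope 16. Under that block the difference from double-KO reversed for Lpar6 (0.41), Gpr132 (-1.28), P2ry2 (-0.42), P2ry1 (0.0669) and Adora2b (-1.77) in wild-type, Gpr132 (-0.0946), P2ry2 (-0.84) and Adora2b (-1.47) in TRIF-KO-labelled and Gpr160 (0.0741) in MyD88-KO cells, and the cause was not tested. With slide as a random block, wild-type and MyD88-KO mean responses called 23 and 22, differences from double-KO 3, 5 and 5, and untreated MyD88-KO and double-KO 3 and 15. Scan day as a block gave 2 and 14 for the last pair. A dye term left 8, 8 and 9 mean responses and 3 for TRIF-KO-labelled minus MyD88-KO. Scaling between arrays gave 21 and 21 for wild-type and MyD88-KO and 9 for double-KO mean responses, 24 for TRIF-KO-labelled minus double-KO and 13 for the slope. The double-KO mean response called 1 without background correction, with the authors' processed log ratios, under the stricter filter, and in the late times. Chosen after seeing the data were the late times alone (10 for wild-type minus MyD88-KO, 16 for TRIF-KO-labelled minus MyD88-KO), no trend in the prior variance, and a trend over the mean ratio (12 for MyD88-KO minus double-KO).

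Leaving out each replicate in turn gave mean responses of 22 to 36, 17 to 32 and 22 to 41 and 0 to 2 in double-KO cells. Differences from double-KO ran from 7 (without the wild-type array of 4 h), 6 (without the TRIF-KO-labelled array of 8 h) and 5 (without the MyD88-KO array of 4 h) to 21, 22 and 27, each without the double-KO array of 1 h. Wild-type minus TRIF-KO-labelled stayed at 0 to 0, wild-type minus MyD88-KO at 0 to 3, and TRIF-KO-labelled minus MyD88-KO at 0 to 5. The response slope ran from 18 to 25, untreated TRIF-KO-labelled from 0 to 1, untreated MyD88-KO from 2 (without its array of 16 h) to 14, untreated double-KO from 25 to 32 and the untreated slope from 26 to 31. Of 38 single-gene results tried, all kept their call without background correction and with probe means, 13 without the replicate block and 3 with slide as a fixed block, and leave-one-out kept 657 of 751. Genes above background on few arrays are limited by their signal.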
